A study of Mus musculus with 35 samples.

Results

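Potassium channel subunit genes were the subject of the measurements described here: 77 of the 49568 gene names in the count tables of 35 mouse hypothalamus libraries. A gene was a member where its name consisted of Kcn, further letters and an optional number, and its raw count averaged at least 10 over the 35 libraries. Of 93 matching names, 13 averaged below 10, and Kcne2, Kcnj8 and Kcnj13 were left out by name. The members nearest the threshold averaged 10.1 (Kcnrg) and 10.6 (Kcnn4) counts, and the nearest genes outside it 7.26 (Kcnq1) and 5.37 (Kcnk7). All 77 passed the filter on low counts. They comprised 65 genes for pore-forming or silent subunits, 11 for auxiliary proteins and Kcnrg, whose product regulates channel assembly and is no subunit. By class there were 6 Kv1, 2 Kv2, 4 Kv3, 3 Kv4 and 4 Kv7 genes, 8 of the EAG, ERG and ELK families, 9 silent Kv genes, 4 BK and Slo2/Slo3 genes, 4 SK and IK genes, 11 inward rectifiers, 10 tandem-pore genes, 3 Kv beta, 4 KChIP, 3 BK beta and 1 KCNE gene.

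Potassium channels let potassium leave the cell and so return the membrane toward its resting potential after excitation. Voltage-gated Kv channels shape the action potential and firing rate, calcium-activated BK and SK channels follow calcium entry, inward rectifiers and tandem-pore channels set the resting potential, and silent Kv subunits form no channel alone but modify Kv2 channels. In the hypothalamus they are known for coupling firing to glucose and ATP (the ATP-sensitive channel of Kcnj11 with Abcc8), for the daily firing rhythm of clock neurons, and for potassium uptake by astrocytes (Kcnj10).

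The study compared feeding states and genotypes in polyA RNA from a dissected hypothalamic block of male B6/J mice, all sampled at Zeitgeber time 16 (hours after lights-on), each mouse giving 1 library. The control genotype comprised 10 mice with free access to food and 10 mice deprived of it for 16 h. The PER2-S662D genotype, in which the clock protein PER2 has aspartate instead of a serine, comprised 5 fed mice and 5 mice deprived of food for 16 h. The 5 mice labelled Per2 knockout had all fasted for 16 h, so feeding cannot be compared in that genotype. The labels give no age, no litter and no construction of either allele, so p-values measure the spread between these mice as they were sampled.

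Depth was 17959586 to 37027342 counts per library, the deepest being of S662D mice. Members took 0.409% to 0.504% of a library's counts. Per2 itself averaged 29.0 ± 2.45 (SD, n = 10) CPM, the count scaled to a common library size, in fasted controls and 30.3 ± 2.00 (SD, n = 5) in the libraries labelled knockout and so was not lower there (log2 fold change 0.06, adjusted p = 0.935 in edgeR's quasi-likelihood fit, Benjamini-Hochberg). In S662D mice Per2 was lower by log2 fold changes of -0.59 fed (adjusted p = 1.18e-07) and -0.55 fasted (adjusted p = 6.80e-07). Library numbers in the file headers form separate ranges for controls 1 to 5, the labelled knockout, controls 6 to 10 and S662D. For these genotypes, library range and genotype cannot be told apart. All listed markers of hypothalamic neurons and of the glial types were detected, whereas the summed level of choroid plexus markers ranged from 23.5 to 1550 CPM between libraries.

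The promoters of 3 members are shown because Kcnf1 and Kcnk1 rose with fasting in both genotypes tested, while Kcnk13 fell in controls. Each run holds the 250 bases before the RefSeq transcription start in gene orientation (GRCm38.p6), namely chr12:17176889-17177138 on the minus strand for Kcnf1, chr8:125994852-125995101 on the plus strand for Kcnk1 and chr12:99964249-99964498 on the plus strand for Kcnk13. Capitals mark AGGTCA on either strand, a motif bound by several nuclear receptors.
Kcnf1: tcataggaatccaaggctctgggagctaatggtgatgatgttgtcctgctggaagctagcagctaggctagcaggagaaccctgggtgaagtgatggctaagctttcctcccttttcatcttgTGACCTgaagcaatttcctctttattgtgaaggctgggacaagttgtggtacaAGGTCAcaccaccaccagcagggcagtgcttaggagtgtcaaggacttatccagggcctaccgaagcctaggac
Kcnk1: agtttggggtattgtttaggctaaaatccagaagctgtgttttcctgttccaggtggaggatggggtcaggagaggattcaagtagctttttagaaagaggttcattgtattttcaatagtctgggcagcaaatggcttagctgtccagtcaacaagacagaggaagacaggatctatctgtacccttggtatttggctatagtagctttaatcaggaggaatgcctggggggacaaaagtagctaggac
Kcnk13: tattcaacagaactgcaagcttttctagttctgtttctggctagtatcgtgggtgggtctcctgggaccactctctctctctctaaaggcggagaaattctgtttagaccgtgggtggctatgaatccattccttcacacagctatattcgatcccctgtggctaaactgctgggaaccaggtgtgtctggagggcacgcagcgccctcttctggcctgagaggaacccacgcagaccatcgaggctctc
Kcnf1 holds 2 copies of AGGTCA, 1 on each strand, and Kcnk1 and Kcnk13 hold none. The RefSeq start of Kcnk1 lies upstream of the first exon base in the count tables. RefSeq promoter entries were matched for 55 members (78 promoters). On both strands of the 250 bases before the start AGGTCA occurred in 5 of 78 member promoters (6.41%) and in 14.0% of 32851 promoters in the table. CACGTG, the E-box bound by CLOCK and BMAL1 among other factors, occurred in 6 of 78 (7.69%) and in 6.02% of all promoters. The palindromic glucocorticoid response element occurred in 0 of 78 and in 0.0304% of all promoters, and AGAACA, which is contained in it, in 12.8% and 16.1%. GC content had a median of 59.6% in member promoters and 52.4% in all.

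Levels between genes were compared as CPM per kb of exon, in fed controls. The astrocyte inward rectifier Kcnj10 was highest at 81.9 ± 5.07 (SD, n = 10), followed by Kcnab2, a beta subunit of Kv1 channels, at 64.9 ± 4.08. The fast-repolarizing Kv3 gene Kcnc2 stood at 32.8 ± 2.04. The ranges of Kcnj10 and Kcnab2 over the 10 libraries did not overlap with each other or with that of Kcnc2, whereas the next 12 genes each overlapped with their neighbour in the order. Kcnc2 was not separated from Kcnj9 (31.3 ± 1.25), a subunit of G-protein-gated channels, the tandem-pore gene Kcnk1 (31.1 ± 2.06) or the Kv3 gene Kcnc1 (31.1 ± 1.28). Among the next were the Kv3 gene Kcnc4 (26.6), the KChIP gene Kcnip4 (24.0), the ERG gene Kcnh2 (22.8), the axonal Kv1 gene Kcna2 (21.7), Kcnip3 (20.3), the A-type gene Kcnd2 (20.0) and the acid-sensitive leak gene Kcnk9 (17.7). The median member stood at 4.92, with 25 members above 10 and 11 below 1. The lowest was the IK gene Kcnn4 at 0.0714 ± 0.0276.

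**Figure D1:**
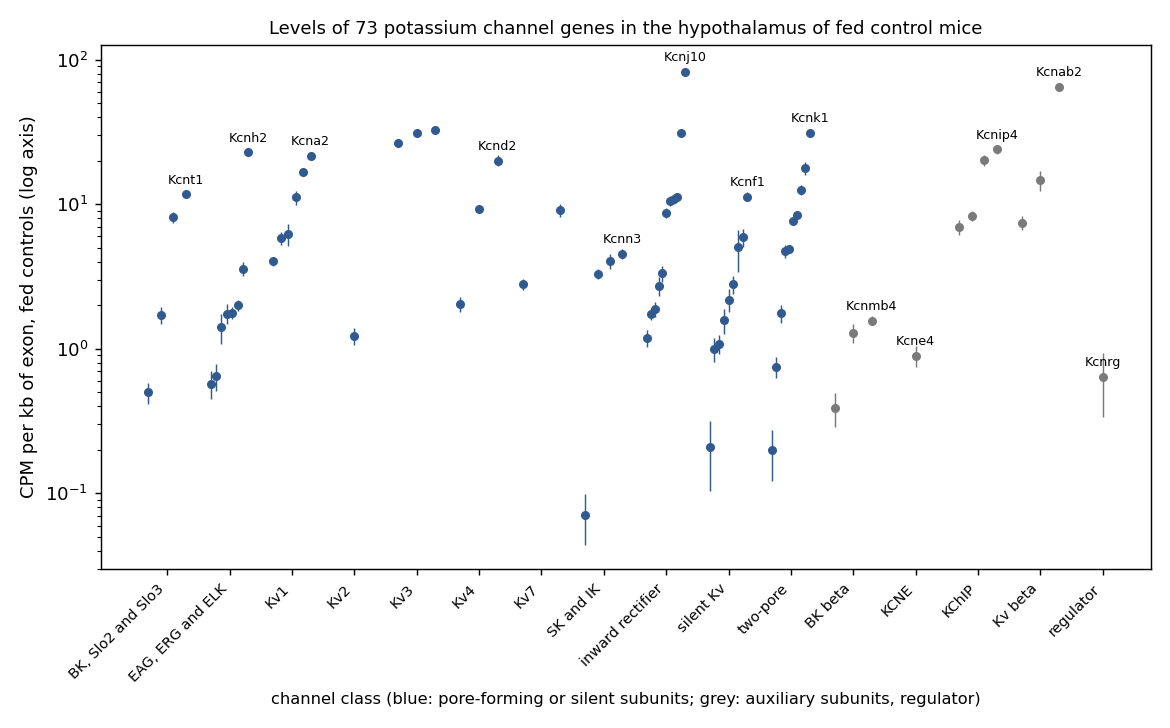
Mean ± SD (n = 10) CPM per kb of exon in fed controls on a log axis, 1 point for each of 73 members, grouped by class, with the highest named in classes whose members are all plotted. Kcnj10 (81.9) and Kcnab2 (64.9) lie above the other members, and Kcnn4 (0.0714) lies lowest.

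Spread between the 10 fed controls was small for most members, with a median coefficient of variation of 10.1%. It exceeded 20% in 9 members. Counting was done without strand, and 7 of 77 members shared at least 10% of their exon bases or 50-base words with another gene, so their values are uncertain. Among those described here were Kcna6, with 39.6% of its exon bases under the opposite-strand gene Gm26673, Kcnk2 (12.2% under A430027H14Rik) and Kcnj3 (31.1% under Gm26794).

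Some libraries stood apart on the members, and the S662D results rest on them. In 6 of the 10 S662D libraries, replicates 2, 3 and 4 of the fed and of the fasted group, the library number carries an additional final digit of unstated meaning. The first principal component of the 77 members, with 17.2% of the variance, put 5 of these 6 libraries at -2.05 to -1.50 and the sixth, fasted replicate 2, at -0.36. The other 29 libraries lay between -0.79 and 1.32. On the second component, with 14.2%, fed controls lay at -1.43 to -0.02 and fasted controls at -0.77 to 1.27.

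**Figure D2:**
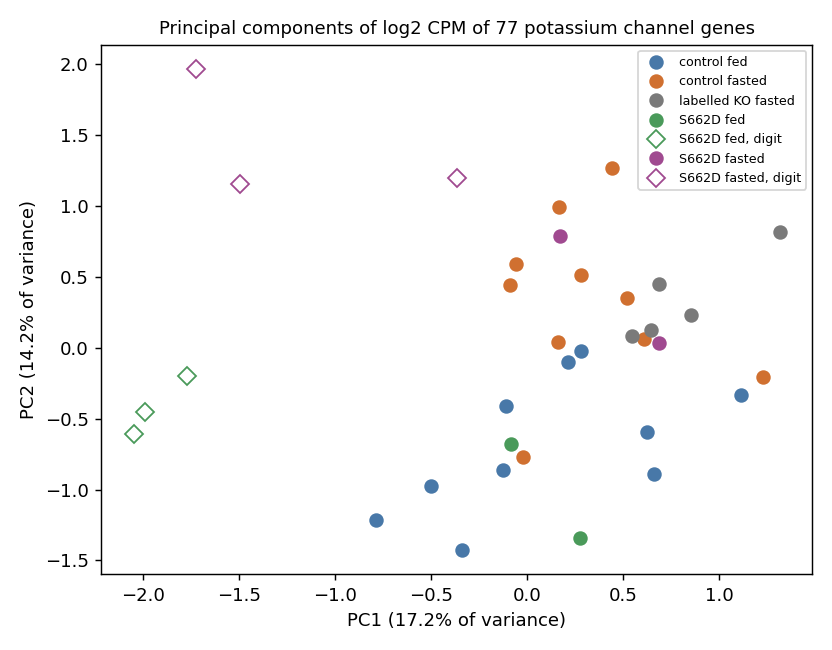
The 35 libraries on the first and second principal component of log2 CPM of the 77 members, coloured by group, with open diamonds for S662D libraries that carry the additional digit. The diamonds lie left of the other libraries (-2.05 to -1.50), except that of fasted replicate 2 (-0.36). Fasted libraries lie mostly above fed ones.

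Within S662D mice, with feeding state in the model, 26 members were called (adjusted p below 0.05) between libraries with and without the digit, 25 higher and 1 lower with it. Over all genes 13.5% were called (8.57% higher, 4.92% lower), against 33.8% of members. This comparison was added after the data had been seen. The A-type channel gene Kcnd2 was higher by a log2 fold change of 0.34 (standard error 0.06, adjusted p = 3.56e-05), the tandem-pore gene Kcnk12 by 0.46 (standard error 0.08, adjusted p = 1.05e-04) and the Kv3 gene Kcnc2 by 0.33 (standard error 0.06, adjusted p = 1.33e-04). The lone lower member was Kcnt1, the sodium-activated Slack channel, at -0.25 (standard error 0.06, adjusted p = 0.00305). The GIRK gene Kcnj6 (0.52), the BK gene Kcnma1 (0.47) and the Kv1 gene Kcna3 (0.50) had the largest differences among called members. All 26 called members had the same direction in fed and in fasted mice taken alone. The call rests on these same mice, so a shared direction is nearly built in and is no independent test. Of all 77 members, called or not, 59 had the same direction in both states. With feeding state in the model, the members' median was 0.16, against -0.01 over all genes. Members took 0.463% to 0.504% of counts in libraries with the digit and 0.429% to 0.438% in those without.

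Tissue markers moved with the digit as well. The summed level of 5 thalamus markers was 1224 to 1465 CPM with the digit and 1084 to 1103 without in fed S662D mice, and 1282 to 1358 against 1126 to 1192 in fasted ones. Oligodendrocyte markers summed to 7668 to 8156 with and 8933 to 9150 without in fed mice, and overlapped in fasted mice. Astrocyte markers summed to 2658 to 2888 with and 2524 to 2544 without in fed mice, and to 2750 to 3055 against 2602 to 2636 in fasted ones. Endothelial and mural markers summed to 325 to 355 with and 297 to 310 without in fed mice, and to 297 to 368 against 260 to 296 in fasted ones. In fasted mice the sums also separated for microglia markers (163 to 179 with, 149 to 160 without), for markers of cortex, hippocampus and amygdala (152 to 173 against 133 to 138) and, lower with the digit, for hypothalamic neuron markers (563 to 751 against 756 to 770), whereas in fed mice these 3 lists overlapped. Striatum markers separated in fed mice (75.4 to 137 with, 65.6 to 67.9 without) and overlapped in fasted ones. Choroid plexus markers separated in fasted mice (23.5 to 41.7 with, 52.5 to 299 without) and overlapped in fed ones. With 3 libraries with the digit and 2 without per state, such separation can readily arise by chance. Depth overlapped, with 18237587 to 37027342 counts with the digit and 19328359 to 34081435 without. The part of tissue makeup in the member differences was not tested. In bulk tissue, fewer cells of a type and less RNA per cell cannot be told apart.

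Fasting in control mice changed 9 members, 6 upward and 3 downward. The risers were the silent subunit Kcnf1, the sodium-activated Kcnt1, the Kv1 gene Kcna5, the SK gene Kcnn2 and the tandem-pore genes Kcnk1 and Kcnk6, by 1.11-fold to 1.37-fold. The fallers were the microglial tandem-pore gene Kcnk13, the astrocytic Kcnj10 and the Kv1 gene Kcna6. Over all genes tested 3.88% were called (2.2% upward, 1.68% downward), against 11.7% of members (7.79% and 3.9%). The median member moved by -0.02 on the log2 scale and the median gene by 0.00.

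Kcnf1 (chromosome 12, 17172100 to 17176888, mm10) has no current of its own and modifies Kv2 channels. Its lowest, median and highest values were 50.5, 54.8 and 62.2 CPM in fed controls and 59.2, 68.9 and 80.4 CPM in fasted controls. The ranges overlapped only through the highest fed library (replicate 7) and 3 fasted libraries. The rise was 0.34 on the log2 scale (standard error 0.06, adjusted p = 3.84e-04 by edgeR's quasi-likelihood test).

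Kcnt1 (chromosome 2, 25863734 to 25918273) encodes a channel opened by intracellular sodium. It measured 100.2, 110.1 and 120.3 CPM at the lowest, median and highest in fed controls and 120.0, 131 and 153 CPM in fasted ones. The groups touched at their ends alone, and the log2 fold change was 0.26 (standard error 0.05, adjusted p = 6.53e-04).

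Kcna5 (chromosome 6, 126532551 to 126535412), a delayed rectifier, had a fed range of 9.92 to 12.6 CPM around a median of 11.7. Its fasted range was 12.01 to 17.2 around 15.05, so that the groups overlapped narrowly. It rose by 0.34 (standard error 0.07, adjusted p = 0.00126). Kcnk6, a weakly conducting tandem-pore subunit at low level, went from 2.26 to 3.87 CPM (median 3.03) in fed to 3.39 to 5.08 CPM (median 4.34) in fasted controls, with the largest rise of the 6 at 0.45 (standard error 0.11, adjusted p = 0.00502).

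Kcnn2, an SK channel behind the afterhyperpolarization, ranged over 24.1 to 35.2 CPM (median 29.5) fed and 29.9 to 40.1 CPM (median 34.8) fasted. It rose by 0.24 (standard error 0.07, adjusted p = 0.0252). Kcnk1 (chromosome 8, 125995170 to 126030685), a background channel, ranged over 62.3 to 77.7 CPM (median 69.1) fed and 67.8 to 81.3 CPM (median 78.8) fasted. It rose by 0.15 (standard error 0.04, adjusted p = 0.0429). Both of these calls were marginal: leaving out 1 control library ended the call of Kcnk1 in 13 of 20 cases and that of Kcnn2 in 6 of 20, whereas the other 7 members were called in all 20.

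Among the fallers, Kcnk13 (chromosome 12, 99964499 to 100062682) encodes the channel behind resting potassium conductance in microglia. Its lowest, median and highest values were 12.4, 14.7 and 17.3 CPM fed and 9.88, 11.8 and 14.2 CPM fasted. The ranges overlapped, and the log2 fold change was -0.34 (standard error 0.07, adjusted p = 0.00119). All 6 microglia markers had log2 fold changes below 0, and 2 of them were called: Cx3cr1 at -0.41 (adjusted p = 1.13e-05) and P2ry12 at -0.34 (adjusted p = 7.29e-04). Microglia markers summed to 161 to 187 CPM in fed and 131 to 188 CPM in fasted controls, and their part in the fall of Kcnk13 was not tested.

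Kcnj10 (chromosome 1, 172341210 to 172374085) encodes the main inward rectifier of astrocytes, where it clears extracellular potassium. It measured 399, 441 and 491 CPM at the lowest, median and highest in fed controls and 347, 387 and 447 CPM in fasted ones. The overlap was wider than for Kcnt1, and the log2 fold change was -0.19 (standard error 0.05, adjusted p = 0.00651). The 8 astrocyte markers did not move one way: Gjb6 (0.49), Agt (0.25) and Aldh1l1 (0.20) rose, Aqp4 fell by 0.33, and their sum was 2464 to 2742 CPM fed and 2448 to 2883 CPM fasted. The part of astrocyte content in the fall of Kcnj10 was not tested. Kcna6, an axonal Kv1 subunit, ranged over 94.4 to 108 CPM (median 99.1) fed and 81.8 to 104 CPM (median 89.0) fasted, with a log2 fold change of -0.15 (standard error 0.04, adjusted p = 0.00610). Its unstranded counts cannot be told apart from those of Gm26673.

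The 9 changes had the same sign in control replicates 1 to 5 and in replicates 6 to 10 taken alone. The calls rest on these same libraries, so a shared sign is nearly built in and is no independent test. In replicates 1 to 5, 4 of the 9 were called (Kcna5, Kcnf1, Kcnk13, Kcnt1) among 11 members called (7.4% of all genes). In replicates 6 to 10 none of the 9 was, although 3 other members were (1.71% of all genes). With the control set as a term over fed and fasted controls together, no member differed between the sets (0% of all genes called). That term cannot show a fasting response that differs between the sets, which was not tested.

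**Figure D3:**
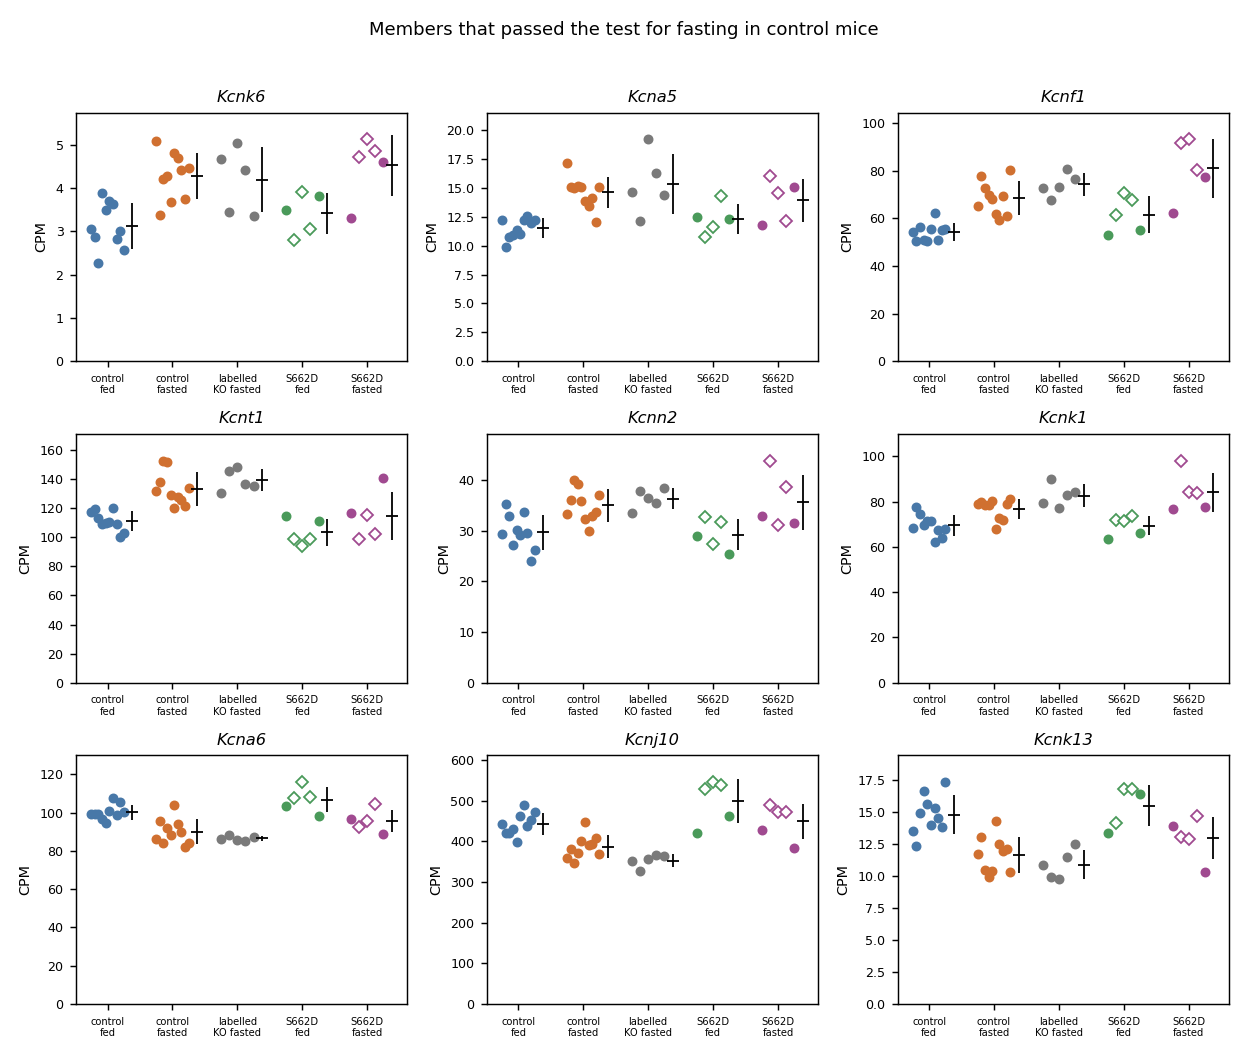
CPM per library for the 9 members called for fasting in controls, with mean ± SD beside each group and open diamonds for S662D libraries that carry the additional digit. For Kcnf1 the fed controls sit at 50.5 to 62.2 and the fasted controls at 59.2 to 80.4.

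Fasted mice labelled Per2 knockout lay with the fasted controls on these 9 members. For Kcnf1 the 5 labelled knockout libraries measured 72.7, 67.8, 73.3, 80.9 and 76.5 CPM, all within or just above the fasted control range. For Kcnj10 they measured 351, 326, 356, 366 and 363 CPM, in the lower part of that range or below it. For Kcnk13 they measured 10.8, 9.89, 9.72, 11.5 and 12.5 CPM.

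Fasting in S662D mice changed 5 members, with 2.64% of all genes called (1.8% upward, 0.83% downward): Kcnf1, Kcnk1 and the Kv1 beta subunit gene Kcnab3 rose, and the sodium-activated Kcnt2 and the silent subunit gene Kcns2 fell. Kcnf1 measured 52.9, 61.3, 70.7, 67.6 and 55.2 CPM in fed replicates 1 to 5 and 62.3, 91.8, 93.2, 80.2 and 77.5 CPM in fasted ones. The groups overlapped through fasted replicate 1, and the log2 fold change was 0.39 (standard error 0.09, adjusted p = 0.00470). Kcnk1 measured 63.6, 71.9, 71.4, 73.6 and 66.3 CPM fed and 76.8, 98.2, 84.1, 83.6 and 77.8 CPM fasted. Its groups did not overlap, and the log2 fold change was 0.28 (standard error 0.06, adjusted p = 0.00331). These were the members called for fasting in both genotypes: 2 of the 9 called in controls and 2 of the 5 called in S662D. The matching overlap over all genes was not counted, and the groups differ in size. A call in 1 genotype alone is therefore no difference between genotypes.

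Kcnab3 measured 34.7, 36.2, 34.95, 33.3 and 35.4 CPM in fed S662D mice and 51.1, 48.6, 45.2, 42.2 and 41.7 CPM in fasted ones, with no overlap. It rose by 0.39 (standard error 0.10, adjusted p = 0.0246), beside a log2 fold change of 0.04 in controls. Kcnt2 measured 13.3, 14.4, 16.0, 16.8 and 13.2 CPM fed and 10.4, 9.32, 13.2, 12.3 and 9.69 CPM fasted, with no overlap but neighbouring values at the ends, and its log2 fold change was -0.43 (standard error 0.11, adjusted p = 0.0128). Kcns2 measured 28.0, 32.3, 36.5, 34.1 and 25.7 CPM fed and 22.8, 25.1, 25.1, 28.9 and 22.6 CPM fasted, with an overlap, and its log2 fold change was -0.34 (standard error 0.09, adjusted p = 0.0273).

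In the libraries without the digit (2 fed, 2 fasted) these 5 members kept their direction and none was called (0.0373% of all genes). The 5 calls rest in part on these libraries, so a kept direction is no independent test. With the digit (3 fed, 3 fasted) 3 of the 5 were called, among 6 members called (3.71% of all genes). Leaving out 1 of the 10 S662D libraries ended the call of Kcns2 in 7 cases, of Kcnab3 in 4 and of Kcnt2 in 3, and that of Kcnf1 and Kcnk1 in 0. With only the fed and fasted S662D libraries in the fit, Kcnf1, Kcnk1 and Kcns2 were not called, and Kcnab3 and Kcnt2 were. The log2 fold changes without and with the digit were 0.37 and 0.41 for Kcnf1, 0.25 and 0.29 for Kcnk1, and 0.41 and 0.38 for Kcnab3. Of the members outside these 5, the highest log2 fold changes were those of Kcng4 (0.53) and Kcnk6 (0.42), and the lowest those of Kcnh4 (-0.65), Kcng3 (-0.64) and Kcnrg (-0.57). None of these was called.

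The difference between the fasting responses of S662D and control mice was tested as an interaction. It called 0 members and 0% of all genes (edgeR, smallest adjusted p of a member 0.762), with 7 members (9.09%) and 6.37% of all genes at an unadjusted p below 0.05, and DESeq2 also called 0. The highest values were those of the silent subunits Kcng4 (0.46) and Kcns3 (0.40) and of Kcnab3 (0.35, standard error 0.12). The lowest were those of the BK beta gene Kcnmb1 (-0.63), the ELK gene Kcnh4 (-0.57) and the silent subunit Kcng3 (-0.48). Against control replicates 1 to 5 alone, 9 members and 486 of 17775 genes were called (members Kcnab2, Kcnab3, Kcng4, Kcnh1, Kcnip3, Kcnj11, Kcnk2, Kcnn1 and Kcnt2). For Kcnab3 the interaction was then 0.60 (adjusted p = 0.0109), and 0.09 against replicates 6 to 10.

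S662D mice differed from controls in 7 members when fed (9.09%), with 4.69% of all genes called (3.12% higher, 1.57% lower). The A-type gene Kcnd2, the SK gene Kcnn3, the silent Kcns2, the sodium-activated Kcnt2 and the Kv1 gene Kcna3 were higher, by log2 fold changes of 0.29 to 0.39. The inward rectifier Kcnj16, a partner of Kcnj10, and the silent Kcns3 were lower. The members' median was 0.09 and that of all genes -0.01.

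Kcnd2 measured 90.7, 104 and 115 CPM at the lowest, median and highest in fed controls. The fed S662D replicates 1 to 5 measured 103, 145, 143, 139 and 109 CPM. The libraries above the control range were replicates 2, 3 and 4, those with the digit, and the log2 fold change was 0.31 (standard error 0.07, adjusted p = 0.00622). Kcnn3 had the same arrangement, with 44.0 to 52.6 CPM (median 45.5) in controls and 46.9, 61.6, 65.9, 62.0 and 51.8 CPM in S662D, for a log2 fold change of 0.29 (standard error 0.07, adjusted p = 0.0103). Kcna3, prominent in lymphocytes and microglia as well as neurons, measured 9.13 to 14.8 CPM (median 11.97) in controls and 12.3, 17.6, 15.2, 19.0 and 12.8 CPM in S662D, for 0.39 (standard error 0.12, adjusted p = 0.0460).

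Kcnj16 was different in arrangement. It measured 40.9, 44.4 and 48.8 CPM in fed controls and 39.4, 38.2, 40.3, 39.0 and 39.4 CPM in fed S662D mice, so all 5 lay below all controls, with the digit or without. Its log2 fold change was -0.18 (standard error 0.05, adjusted p = 0.0270), the same without the digit (-0.18) and with it (-0.18). The call was lost in 9 of 29 alternatives: without the libraries that carry the digit, with the digit as a term, without fed S662D replicate 2, 3 or 4, against either set of controls alone, with a replicate block and without the filter on low counts. Kcns3 measured 5.36, 6.36 and 9.11 CPM in fed controls and 7.39, 4.59, 4.09, 4.87 and 3.86 CPM in S662D, for -0.43 (standard error 0.12, adjusted p = 0.0350).

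In the fasted state S662D mice differed from controls in 13 members, 12 higher and 1 lower (16.9%), with 5.57% of all genes called (3.35% higher, 2.23% lower). With library size alone as the scaling the split was 7 higher and 2 lower. The higher members included the Kv3 genes Kcnc1 and Kcnc4, the inward rectifiers Kcnj10, Kcnj11 and Kcnj12, the tandem-pore genes Kcnk3 and Kcnk12, the Kv1 gene Kcna1, the Kv beta gene Kcnab2, the ERG gene Kcnh2 and Kcnf1. The lower member was Kcnt1. No member was called in both feeding states, and the matching overlap over all genes was not counted. A call in 1 state alone is no difference between states. The interaction called 0 members, and the members' median log2 fold change was 0.09 fed and 0.08 fasted.

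Kcnj11, the pore of the ATP-sensitive channel that closes when ATP rises, measured 27.7, 30.5 and 34.7 CPM at the lowest, median and highest in fasted controls and 34.5, 41.4, 38.7, 41.2 and 33.9 CPM in fasted S662D mice. The libraries above all controls were replicates 2, 3 and 4, and the log2 fold change was 0.31 (standard error 0.06, adjusted p = 0.00151). Its partner Abcc8, the sulfonylurea receptor, was called in the fed state instead (0.23, adjusted p = 0.00857), and none of the 3 KATP genes was called for fasting.

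Kcnk12, a silent member of the tandem-pore class, measured 10.7, 13.6 and 15.4 CPM in fasted controls and 13.8, 21.0, 19.0, 18.2 and 14.2 CPM in fasted S662D mice, for a log2 fold change of 0.35 (standard error 0.09, adjusted p = 0.0188). As for Kcnj11, the values above the control range were those of replicates 2, 3 and 4. Kcnc4 was the exception among the 13, with 85.0 to 104 CPM (median 94.1) in controls and 107, 115, 108, 107 and 104 CPM in S662D, which did not overlap. Its log2 fold change was 0.18 (standard error 0.05, adjusted p = 0.0160), and 0.14 without the digit.

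**Figure D4:**
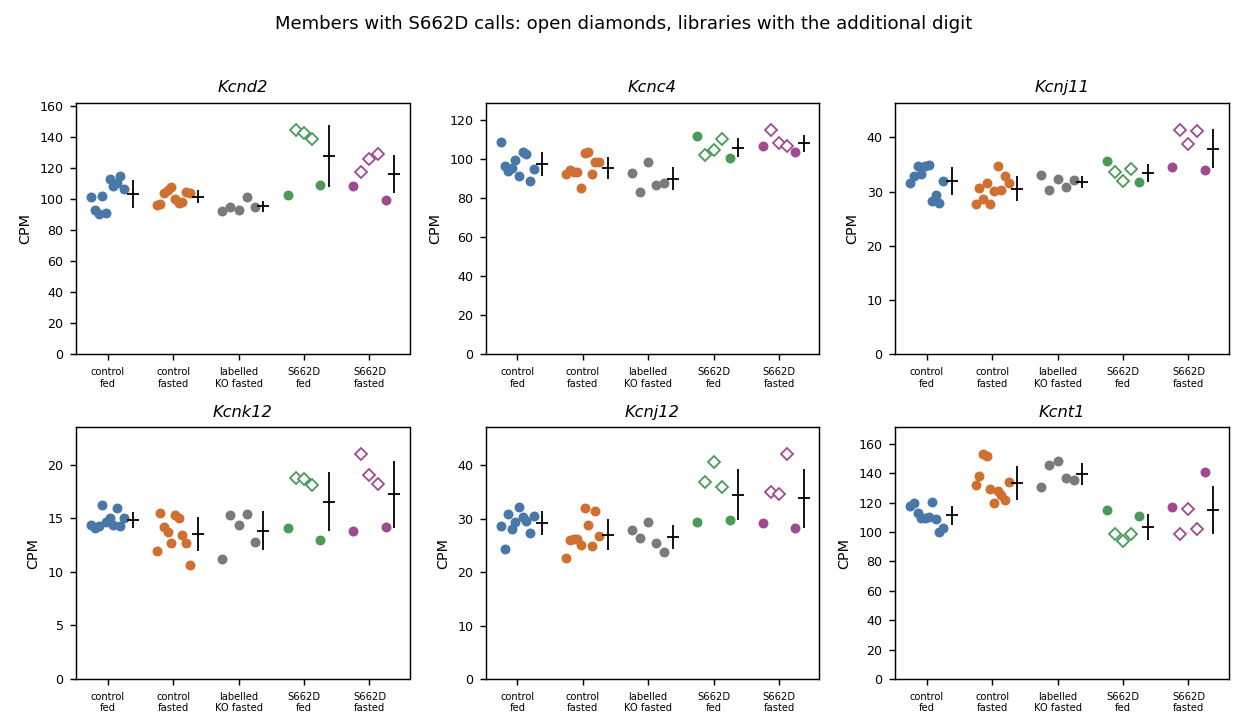
CPM per library for 6 members with S662D calls, with mean ± SD beside each group. In Kcnd2 the open diamonds of the fed S662D group (139 to 145) lie above all fed controls (90.7 to 115), while the filled S662D points (103 and 109) lie among them.

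None of the 20 S662D calls on members held without the libraries that carry the digit, though few libraries then remain. Using only S662D libraries without it (2 per feeding state), 0 members were called fed and 0 fasted, beside 0.0854% and 0.112% of all genes. Using only those with it (3 per state), 28 and 30 members were called, beside 16.9% and 17.1%. With the digit as a term, 0 were called in either state. The members' median log2 fold change was -0.01 fed and 0.00 fasted without the digit, and 0.16 in both states with it. The sizes moved to different extents: Kcnd2 fed was 0.03 without and 0.46 with, Kcnn3 fed 0.06 and 0.42, Kcnj12 fasted 0.09 and 0.46, and Kcnk12 fasted 0.05 and 0.53, whereas Kcnj11 fasted was 0.16 and 0.40, Kcnc4 fasted 0.14 and 0.20, and Kcnj16 fed -0.18 in both. Endothelial markers were called as higher in S662D too, Flt1 (0.28) and Cldn5 (0.31) fed and Flt1 (0.37), Pecam1 (0.28) and Cldn5 (0.46) fasted, and their part was not tested. Leaving out 1 library gave 0 to 17 members fed and 1 to 20 fasted, the lowest without fed S662D replicate 2, 3 or 4 and without fasted S662D replicate 4. All 20 calls kept their sign without the digit. The calls rest in part on these same libraries and on the same controls, so a kept sign is partly built in and is no independent test. Against control replicates 6 to 10 alone, 0 members were called in either state (0.185% of all genes fed, 0.269% fasted), and against replicates 1 to 5 alone 13 fed and 15 fasted (9.79% and 9.45%).

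**Figure D5:**
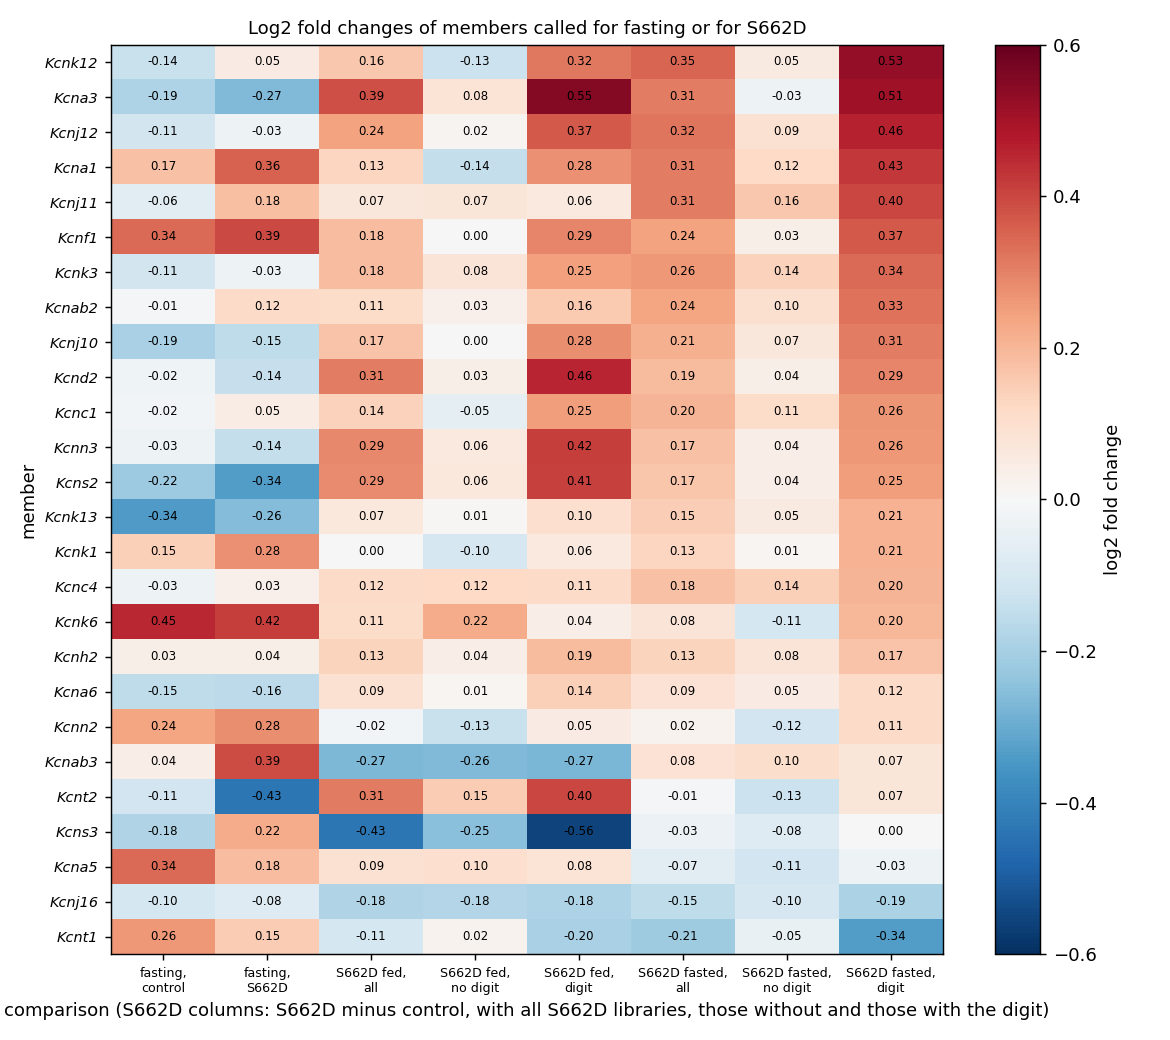
Log2 fold changes of 26 members called for fasting or for S662D, 1 row per member and 1 column per comparison, red above 0 and blue below 0. The S662D columns are shown for all libraries and for those without and with the additional digit, and share the control libraries; Kcnk12 fasted reads 0.35, 0.05 and 0.53.

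No member passed the test between mice labelled Per2 knockout and fasted controls (0 members, with 0.0277% of all genes called). At an unadjusted p below 0.05 there were 6 members (7.79%) and 6.07% of all genes, the smallest adjusted p was 0.804, and DESeq2 also called 0. The highest log2 fold changes were those of Kcnrg (0.46), the tandem-pore Kcnk5 (0.35) and Kcnn4 (0.22), all among the lowest members in level. The lowest was that of Kcnmb1 (-0.52), and the A-type gene Kcnd1 was at -0.19. Against control replicates 6 to 10 alone, 1 member and 99 of 17812 genes were called. The member was Kcnip3, a calcium sensor that binds Kv4 channels and also DNA, at -0.24 (adjusted p = 0.0353, edgeR's quasi-likelihood test).

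Against fasted S662D mice, the labelled knockout mice differed in 15 members, 4 higher and 11 lower (19.5%), with 7.34% of all genes called (2.61% higher, 4.72% lower). Kcnj10 was lowest in p, with the knockout values of 326 to 366 CPM given above against 428, 489.7, 473, 471 and 383 CPM in S662D, no overlap, and a log2 fold change of -0.35 (standard error 0.07, adjusted p = 0.00116). Kcnc4 measured 93.0, 83.3, 98.6, 87.0 and 87.9 CPM in labelled knockout mice and 107, 115, 108, 107 and 104 CPM in S662D, also without overlap (-0.26, standard error 0.05, adjusted p = 0.00179). The other lower members included Kcnab2, Kcnc1, Kcnd2, Kcnip3, Kcnj11, Kcnj12 and Kcnk3. Kcnj16 (0.23), Kcnt1 (0.28), the mechanosensitive Kcnk2 (0.19) and the KChIP gene Kcnip1 (0.21) were higher. In the same comparison 4 of 8 endothelial and mural markers were lower (Cldn5 -0.53, Pdgfrb -0.44, Flt1 -0.44, Pecam1 -0.33; median of the list -0.28), as was the thalamus marker Tcf7l2 (-0.34), and 3 of 12 hypothalamic neuron markers were higher (Pmch 0.46, Hcrt 0.45, Npy 0.41). Their part in the member differences was not tested. No member was called against S662D libraries without the digit (0.139% of all genes), and 33 were called against those with it (16.2%).

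Across all 5 groups, 36 of 77 members differed in 1 joint test (46.8%), with 20.1% of all genes called. A pairwise test called 31 members, 30 of which were also called in the joint test, and 40 members were called in neither. Among those 40 were high-level genes such as Kcnc2, Kcna2 and Kcnip4, and 7 of the 8 EAG, ERG and ELK genes. Without the S662D libraries that carry the digit the joint test called 13 members and 1036 of 18746 genes.

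By role, the 4 GIRK genes (Kcnj3, Kcnj5, Kcnj6 and Kcnj9), which mediate inhibition by G-protein-coupled receptors, had 0 calls in the 7 comparisons of groups, where 0% to 7.34% of all genes were called, a share that brings few or no calls among 4 genes. Kcnj9 was called in the joint test of the 5 groups (adjusted p = 0.00760), and Kcnj6 between S662D libraries with and without the digit. The 4 genes' log2 fold changes with fasting in controls lay between -0.13 and 0.11. In control replicates 1 to 5 alone Kcnj5 rose (0.37, adjusted p = 0.0163) and Kcnj9 fell (-0.24, adjusted p = 0.0116), with -0.17 and -0.04 in replicates 6 to 10. Of 7 clock-linked channel genes, 1 (Kcnk1) was called for fasting in each genotype, and Kcnd2 fed and Kcnc1 fasted for S662D. Against S662D, the labelled knockout had lower Kcnd2 and Kcnc1 and higher Kcnk2, beside 7.34% of all genes called. In lists of this size, 1 call is near the shares called over all genes (3.88% and 2.64% for fasting in controls and in S662D, 4.69% and 5.57% for S662D fed and fasted). Of 5 glial channel genes, Kcnk1 rose and Kcnj10 and Kcnk13 fell with fasting in controls, beside 3.88% of all genes called. Kcnk1, which is on both lists, lost that call in 13 of 20 fits that left out 1 control library. With fasting in S662D Kcnk1 rose (2.64% of all genes called). For S662D against controls Kcnj16 was lower fed (4.69%) and Kcnj10 higher fasted (5.57%).

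Neighbouring members did not always move together. Kcna5, Kcna1 and Kcna6 lie in that order on chromosome 6, with gaps of 105 kb and 61.9 kb. With fasting in controls Kcna5 rose by 0.34, Kcna1 had a log2 fold change of 0.17 that did not pass the test, and Kcna6 fell by 0.15. Kcnj9 and Kcnj10 lie 11.9 kb apart on chromosome 1; Kcnj10 fell by 0.19 with fasting in controls, and Kcnj9 had -0.13 without passing the test. Kcnj16 and Kcnj2 lie 38.2 kb apart on chromosome 11.

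Genes that work with these channels were taken from lists. No HCN, sodium-potassium pump, voltage-gated sodium or voltage-gated calcium channel gene was called for fasting in controls (0 of 4, 0 of 6, 0 of 11 and 0 of 10 tested), which is near the 3.88% called over all genes. Fasting in S662D lowered the sodium channel beta gene Scn3b (-0.17, adjusted p = 0.0207) and raised Scn4b (0.44, adjusted p = 0.0310). In S662D mice the pacemaker gene Hcn4 was higher fed (0.29) and fasted (0.36), with -0.06 and 0.15 in libraries without the digit. The pump gene Atp1b2 was higher fasted (0.22, and 0.04 without the digit). The calcium channel genes Cacna1a (0.26), Cacna1c (0.26) and Cacna1g (0.28) were higher fed and Cacna1g (0.20) fasted. Of Kv1 partners, Cntnap2 was higher fed (0.16) and Lgi1 lower fasted (-0.16). Against S662D, the labelled knockout had lower Hcn2 (-0.33), Hcn4 (-0.48), Atp1b2 (-0.31), Cacna1g (-0.35), Scn2b (-0.15) and Amigo1 (-0.17) and higher Lgi1 (0.22). Except where stated, these S662D values include the libraries with the digit. Over all genes 4.69% were called for S662D fed, 5.57% fasted and 7.34% for the labelled knockout against S662D. Without the libraries that carry the digit these shares were 0.0854%, 0.112% and 0.139%. All 7 glucocorticoid-induced genes rose with fasting in both genotypes (medians of their log2 fold changes 1.02 and 1.06). Over all genes 2.2% were called upward in controls and 1.8% in S662D. The list was chosen with earlier results of these data known, so its rise is no independent test.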

How the data were processed

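Members and gene lists were chosen with earlier results of these data known. The authors deposited raw counts per gene and library. Per the submitters' processing notes the tools were STAR 2.7.10b and featureCounts 2.0.1 of Subread, with build mm10. Per the file headers, counting used the GENCODE vM12 annotation, summed exons by gene name without strand and counted multi-mapping reads. From these counts, edgeR 4.0.16 (R 4.3.3) kept 18063 genes with filterByExpr (minimum count 10), scaled libraries by TMM and fitted all 35 libraries with a mean per group (glmQLFit with robust estimation, glmQLFTest). P-values were adjusted by Benjamini-Hochberg over all genes tested, and a gene was called at an adjusted p below 0.05. Depth was 17959586 to 37027342 counts, and the common biological coefficient of variation was 0.0900. No library was a duplicate (chi-square per degree of freedom at least 2.53 in 120 pairs within groups). CPM uses TMM-scaled library sizes, and CPM per kb divides by the exon length in the count tables. The named members were those called in any test, the 3 highest and 3 lowest in comparisons with fewer than 6 calls, the 15 highest per kb and those of the listed families. The fit was tested on simulated counts. Alternatives used DESeq2 1.42.0, limma 3.58.1 (voom), other scalings and filters, a replicate block, subsets of libraries and leaving out each library. Some members and listed genes are counted in totals but not reported by name here.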

Additional observations from a re-analysis of the deposited data

Results flagged for a closer look

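In 6 of 155 groups examined (31 members called in a pairwise test, in 5 groups each), 1 library lay far from the rest of its group, where chance flags about 1 group in 20. Kcnd2 stood at 102 CPM in labelled knockout replicate 4, against 92.4 to 94.9 in the other 4. Kcnf1 stood at 62.2 CPM in fed control replicate 7, against 50.5 to 56.3 in the other 9. Kcnip1 stood at 62.0 CPM in fed control replicate 5, against 46.4 to 53.7. Kcnj16 stood at 47.9 CPM in fasted control replicate 5, against 38.5 to 42.4. Kcnk3 stood at 40.7 CPM in fed control replicate 2, below the other 9 at 48.5 to 54.1. Kcns3 stood at 7.39 CPM in fed S662D replicate 1, which lacks the additional digit, against 3.86 to 4.87 in the other 4.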

How the results depend on the processing

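Counts are members called, beside 9 for fasting in controls, 5 for fasting in S662D, 0 for the interaction, 7 and 13 for S662D against control (fed, fasted), 0 and 15 for the labelled knockout against control and S662D, and 36 for any difference. Control replicates 1 to 5 alone gave 9 for the interaction and 13 for S662D fed; replicates 6 to 10 alone gave 3 for fasting in controls, 0 and 0 for S662D fed and fasted, and 1 for the labelled knockout against control. S662D libraries without the digit gave 0 for fasting in S662D, 0 and 0 for S662D, 0 for the labelled knockout against S662D and 13 for any difference; those with it gave 28, 30 and 33; the digit as a term gave 0, 0 and 0, and 20 for any difference. Fitting the compared groups alone gave 2 for fasting in S662D (279 of 17479 genes called) and 5 for S662D fasted (291 of 17392). It gave 9 for the labelled knockout against S662D (476 of 17218 genes). DESeq2 gave 8 for fasting in S662D (638 of 15509 genes called) and 16 for S662D fed (1425 of 13451). Limma-voom gave 26 for S662D fed (3330 of 18063 genes) and 6 fasted (398 of 18063). The digit comparison (26) gave 13 in fed mice alone (784 of 18063 genes called) and 8 in fasted mice alone (1049 of 18063). Leaving out 1 library gave 7 to 11, 2 to 7, 0, 0 to 17, 1 to 20, 0, 7 to 22 and 33 to 38 in the order above. The lowest for fasting in S662D came without fed replicate 4 or fasted replicate 2 (3 without fasted replicate 5). For S662D fed, 0 came without fed replicate 2, 3 or 4, where 122, 150 and 66 of all genes were called. There were 3 without fed control replicate 3 or 4 (511 and 536 genes). Without fed S662D replicates 1 and 5 there were 16 and 17 (1667 and 1612 genes). For S662D fasted, 2, 2 and 1 came without fasted S662D replicates 2, 3 and 4 (220, 296 and 154 genes). Without replicate 1 there were 20 (1802 genes). Against S662D, the labelled knockout gave 9 and 7 without fasted S662D replicates 2 and 4. The labels do not say whether replicate numbers pair mice. Correlations of same-numbered deviations were -0.19 to 0.24, which does not settle it, and a replicate block gave 9, 5, 0, 10, 14, 0, 17 and 34. Signs reversed for Kcng4 (interaction, controls 6 to 10, -0.13), Kcnn4 (labelled knockout against control, without its replicate 3, -0.0047, and up to 0.43 without replicate 4) and Kcnrg (the same comparison, controls 1 to 5, -0.0384), none of them called. The cause was not tested; subsets also hold fewer libraries. Members below 1 CPM per kb are the least precise.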
